A study of Mus musculus with 8 samples.

Results

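Mitochondria make most of their ATP with 5 protein complexes of the inner membrane. Complexes I to IV pass electrons from NADH and succinate to oxygen and pump protons (complex II passes electrons without pumping), and complex V, the ATP synthase, lets the protons flow back and makes ATP. Most subunits are encoded in the nucleus and a small set in mitochondrial DNA, and several subunits of complex IV come in a common form and a form of muscle, heart or lung. In the adipocyte lineage these complexes are known for the growth of mitochondrial mass during differentiation. The genes described here are the nuclear ones, taken by their names: all genes whose symbol starts with Ndufa, Ndufb, Ndufc, Ndufs, Ndufv, Uqcr, Atp5 or Cox4 to Cox8, and Sdha, Sdhb, Sdhc and Sdhd. This gave 90 of the 23699 gene entries listed for each library. By their known roles 36 belong to complex I, 4 to complex II, 8 to complex III, 20 to complex IV and 15 to complex V. The names also took in 7 genes of other proteins: the complex I assembly factors Ndufaf1 to Ndufaf4, Atp5s (a coupling factor of the ATP synthase that is no core subunit), Atp5sl (its relative) and Cox4nb, which encodes a protein of the endoplasmic reticulum membrane complex. Ndufa4 and Ndufa4l2 were counted with complex IV, where the Ndufa4 protein is now placed, and so was Cox7a2l, a factor that joins complexes into supercomplexes.

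The cells were 3T3-L1 preadipocytes, a mouse fibroblast line that can be induced to become fat cells, collected 2 days after confluence and before any induction named in the labels. They had been transfected before confluence for 24 hours with 40 nM of a mix of 3 Stealth siRNAs (modified duplexes that direct degradation of a matching mRNA), carried in Lipofectamine 2000. The mix was aimed at Fto, which encodes an RNA demethylase, in 4 samples and was non-targeting in the other 4. All 8 samples therefore share the line, the medium with newborn calf serum, the transfection and the confluent state. The labels do not say whether the 4 samples of a group were separate cultures, so a p-value here covers the spread of these samples alone, and that spread may be technical. Because each group received 1 mix, effects of the duplexes other than on Fto cannot be told apart from those of lowering Fto.

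Values are FPKM (fragments scaled by transcript length and library size), so levels can be compared between genes. Differences are on the scale log2(FPKM + 0.5), Fto siRNA minus control siRNA, which understates the change of low genes, and they were tested with limma, two-sided, over the 11398 genes with a mean of at least 1 FPKM and an adjusted p threshold of 0.05. Fto itself held 54.6 to 56.2 FPKM in the control libraries and 10.7 to 13.8 in those with Fto siRNA (log2 fold change -2.15, limma adjusted p = 7.3e-08; exact two-sided permutation p = 0.0286, the smallest that 70 arrangements allow). Summed FPKM of 9 preadipocyte and fibroblast markers ranged over 8045 to 8779 in control libraries and over 8888 to 10357 in those with Fto siRNA. Most of the sum came from Col1a1, Col1a2 and Col3a1, with control means of 1605, 2932 and 2299 FPKM. Of the 9, 8 were at 1 FPKM or more (Cd34 was below). The markers went both ways: 5 were called higher (these collagen genes, Thy1 and Ly6a) and 2 lower (Pdgfra and Pdgfrb), and Dlk1 was not called. Over all tested genes 6.97% were called higher and 12.3% lower. Of 8 mature adipocyte markers 4 reached 1 FPKM, with sums of 84.1 to 116 and 84.4 to 97.7 FPKM and none called, and Ucp1 and Prdm16 of brown fat were listed at 0 in every library. Leukocyte, endothelial and epithelial markers summed to at most 1.48, 0.562 and 0.0970 FPKM. The part of these marker shifts in the results on oxidative phosphorylation genes was not tested.

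Expression of the respiratory chain and ATP synthase genes was nearly level between the groups. Of the 90 genes 82 reached the tested level, and among them 1 was called higher with Fto siRNA (Cox6a2, the muscle and heart form of a complex IV subunit) and 1 lower (Atp5s), while 80 were not called. That is 1.22% in each direction, where 6.97% of all tested genes were called higher and 12.3% lower. Cox6a2 reached the tested level only through the Fto siRNA group and rests on 5 to 28 fragments per library, which limits its call. With p unadjusted and under 0.05, limma had 5 of the 82 on the higher side and 3 on the lower, beside 12.5% and 19.9% of all tested genes. The median log2 fold change of the 82 genes was 0.01 (-0.02 over all tested genes), with 46 above 0 and 36 below. In total RNA of a culture, fewer cells of a type and less RNA per cell cannot be told apart.

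The intervals were narrow. The 95% interval of the fold change lay within 1.2-fold in either direction for 73 of the 82 genes, within 1.25-fold for 79 and within 1.5-fold for 80; the exceptions at 1.5-fold were Cox6a2 and the complex I gene Ndufab1. The median standard error was 0.06 for these genes and 0.05 over all tested genes (log2). Genes that were not called ranged in log2 fold change from -0.32 (Ndufab1) to 0.19 (Atp5k). By complex the medians were 0.04 for I, -0.01 for II, -0.01 for III, 0.01 for IV and -0.01 for V, so no complex had a median shift above 0.04. In 3 of the 82 genes (Cox6a2, Atp5b and Ndufaf4) every Fto siRNA library was above every control, beside 9.08% of all tested genes, and in 1 (Atp5s) every Fto siRNA library was below, beside 15.1%.

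**Figure D1:**
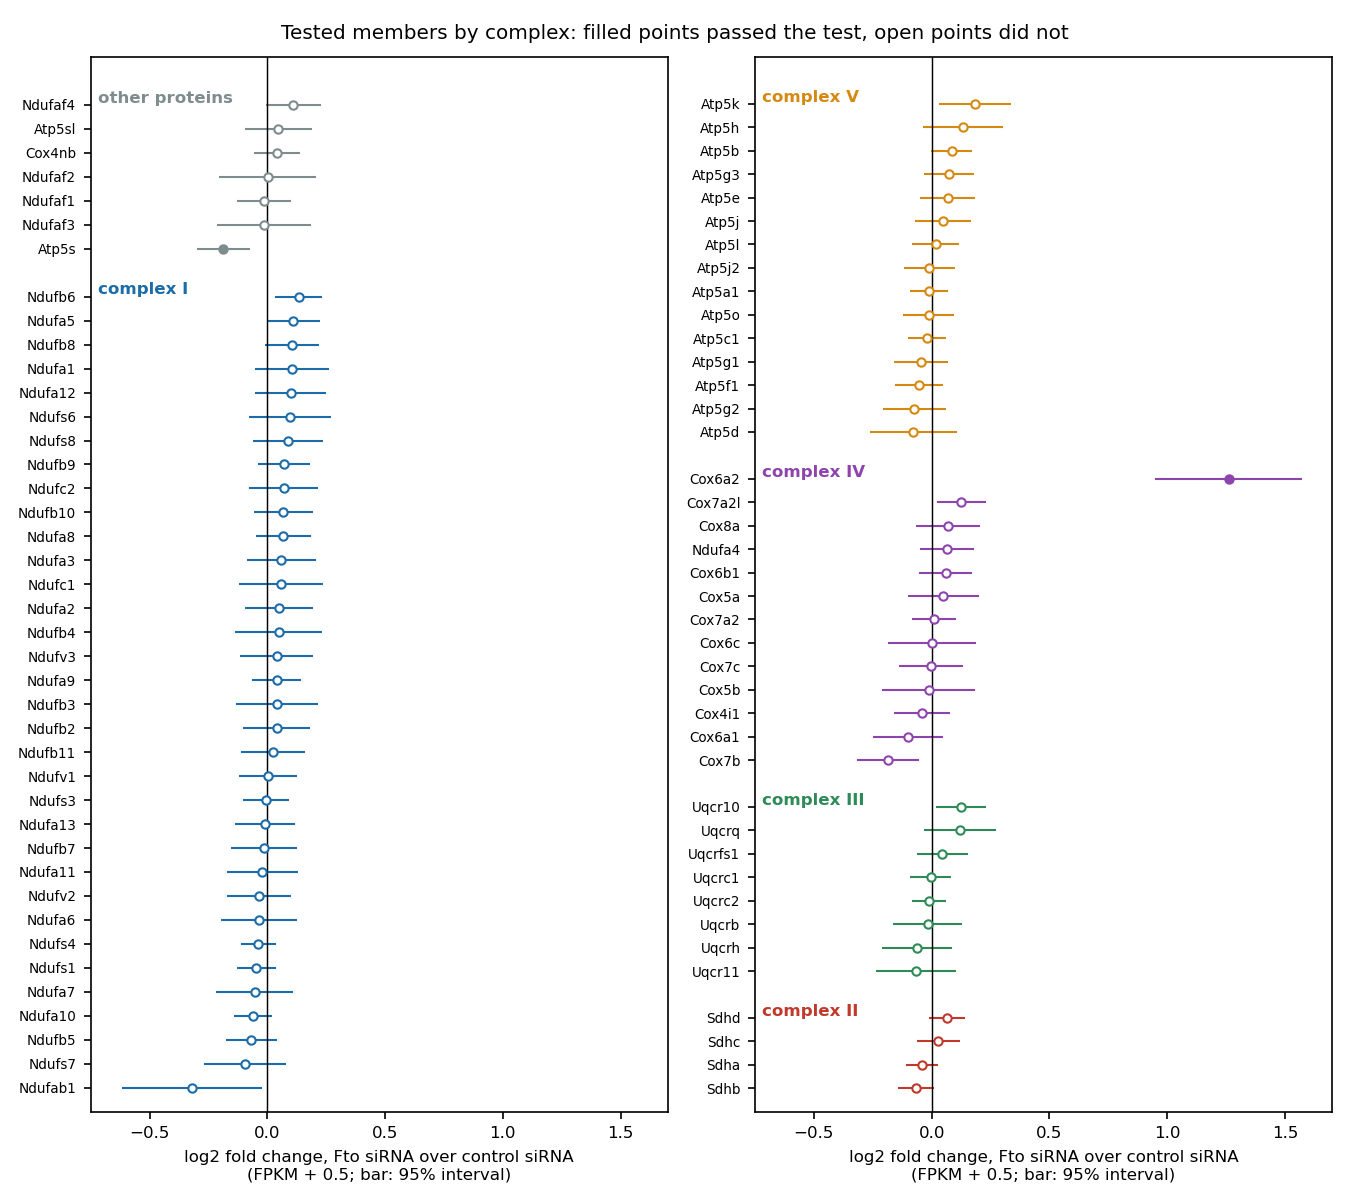
Log2 fold change (Fto siRNA over control siRNA, FPKM + 0.5) of the tested genes, ordered within its complex, with its 95% interval from limma as a bar; filled points passed the test and open points did not. Most points lie close to 0, Cox6a2 stands at 1.26 and Ndufab1 at -0.32 with the longest bar to the left.

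Most of these genes were abundant transcripts. Their median level was 93.3 FPKM, against 15.1 FPKM over all tested genes, and the 90 genes together held 2.37 to 2.58% of a library's summed FPKM. The highest levels were those of Ndufa4 (537 FPKM in the controls and 562 with Fto siRNA) and of Atp5k, a small membrane subunit of the ATP synthase (497 and 563 FPKM). Levels within a complex differed widely. In complex I the mean over all libraries ran from 10.6 FPKM for Ndufab1, the mitochondrial acyl carrier protein, to 297 for the accessory subunit Ndufa3, a 28.2-fold range. Reads of Ndufab1 could be split with a near-identical processed copy, so the low end of this range is uncertain. Complex II was the most even, with its 4 genes within 1.80-fold of each other.

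**Figure D2:**
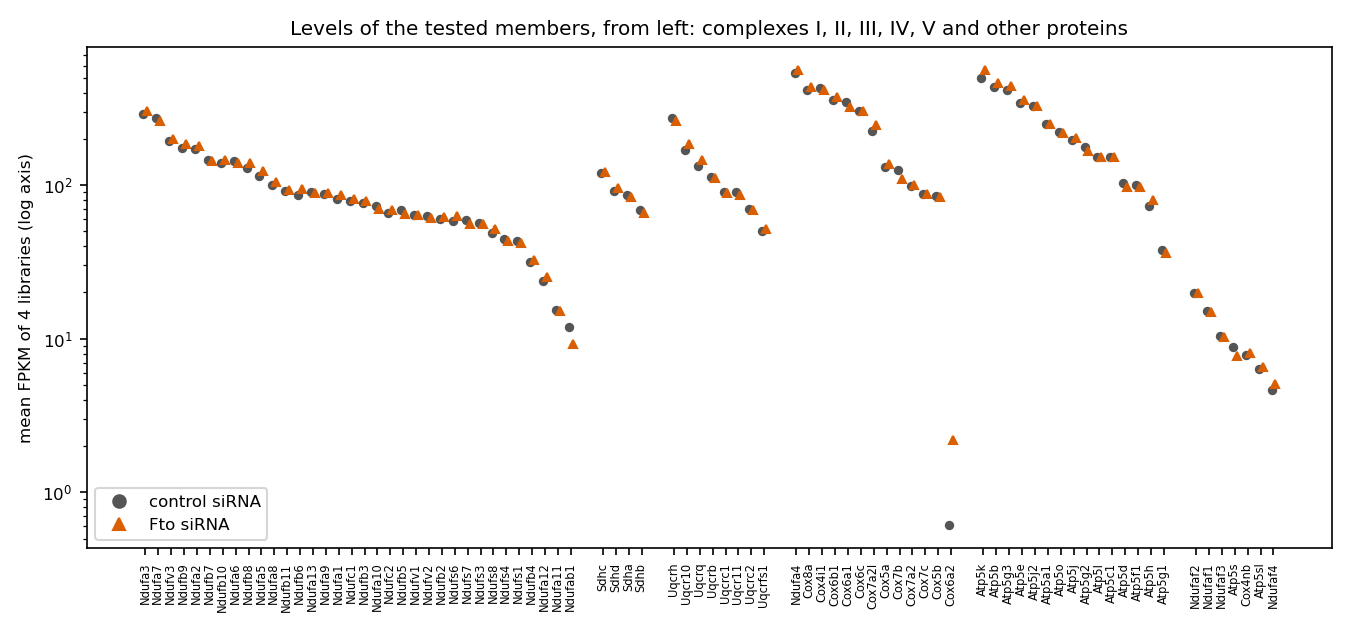
Mean FPKM over the 4 control siRNA libraries (grey circles) and the 4 Fto siRNA libraries (orange triangles) of the tested genes on a log axis, by complex and in order of level. The 2 symbols overlap for nearly every gene, while Cox6a2, the lowest, separates from 0.610 to 2.19 FPKM.

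Summed over the genes of a complex, the levels of the groups overlapped. Complex I summed to 3375 ± 249 FPKM in the controls and 3441 ± 146 with Fto siRNA (SD, n = 4), a ratio of 1.02. For complex II the sums were 366 ± 11.4 and 368 ± 6.74 FPKM, a ratio of 1.003, and for complex III 990 ± 66.9 and 999.8 ± 31.3 FPKM, a ratio of 1.01. Complexes IV and V had ratios of 1.01 and 1.03, from 3143 ± 219 to 3177 ± 152 FPKM and from 3480 ± 209 to 3597 ± 109 FPKM. In each of the 5 sums control replicate 3 was the highest control, and without it the ratios of complexes I to V were 1.06, 1.01, 1.04, 1.05 and 1.06. The sums of complex V overlapped only through that library: the other controls held 3295, 3456 and 3390 FPKM and the Fto siRNA libraries 3484 to 3745. Those of complexes I to IV overlapped without it too.

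Complex I, which takes electrons from NADH, had 35 of 36 genes tested, with 0 called higher and 0 lower by limma. With p unadjusted and under 0.05 there were 1 on each side. The 7 core subunits carry out the electron transfer, and their log2 fold changes ran from -0.10 to 0.09. Ndufs1, the largest of them, held 43.5 ± 1.15 and 42.1 ± 1.74 FPKM (n = 4, SD; -0.05 in log2 units, limma adjusted p = 0.44). Ndufv1, which binds the flavin, held 63.7 ± 5.06 and 63.7 ± 2.61 FPKM (0.00 in log2 units, limma adjusted p = 0.98). For the cluster-bearing subunits Ndufs7, Ndufs8 and Ndufv2 the log2 fold changes were -0.10, 0.09 and -0.03 and for Ndufs3 -0.01, with limma adjusted p of 0.44, 0.40, 0.74 and 0.94.

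Among the accessory subunits of complex I, Ndufb6 of the membrane arm came closest to the threshold on the higher side. Its controls held 87.8, 89.1, 85.2 and 81.9 FPKM, and the Fto siRNA libraries 97.1, 91.7, 88.6 and 100.3 FPKM. Only Fto siRNA replicate 3 lay inside the range of the controls. The log2 fold change was 0.13 (SE 0.05, limma adjusted p = 0.064). Ndufab1 had the largest difference on the lower side: 9.04, 10.5, 14.4 and 13.4 FPKM in the controls and 8.01, 9.24, 9.12 and 10.7 FPKM with Fto siRNA. The groups overlapped, because control replicates 1 and 2 lay at the level of the Fto siRNA libraries. Its log2 fold change was -0.32, with a 95% interval of -0.62 to -0.02 (limma adjusted p = 0.126), and without control replicate 1 it was called lower at -0.44 (limma adjusted p = 0.034). A processed copy, Ndufab1-ps, shares 99.4% of 469 aligned bases with Ndufab1, so the authors' quantification could split reads between them.

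Ndufs5, a small accessory subunit, was not tested. It was listed at 6.2e-05 FPKM or less in 7 libraries and at 3.15 FPKM in Fto siRNA replicate 4. A second entry over the same locus on mm9 chromosome 4, BC002163, held 44.9 ± 3.27 FPKM in the controls and 50.1 ± 4.48 with Fto siRNA (n = 4, SD; 0.16 in log2 units, limma adjusted p = 0.139). Another BC002163 entry, on chromosome 16, held 65.5 ± 4.68 and 74.3 ± 6.31 FPKM (log2 fold change 0.18, limma adjusted p = 0.083). The sequence annotated as BC002163 is identical to Ndufs5 at 99.4% of 319 aligned bases. How the authors' quantification shared reads between these entries was not tested, so the listed value of Ndufs5 is not read as its level here.

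Complex II is the succinate dehydrogenase of the citric acid cycle and has no subunit from mitochondrial DNA. Its 4 genes had the lowest median standard error of the complexes, 0.03 (log2), and none was called. Sdha, the flavoprotein, held 86.0 ± 1.74 FPKM in the controls and 83.6 ± 1.32 with Fto siRNA (n = 4, SD; -0.04 in log2 units, limma adjusted p = 0.39). The iron-sulphur subunit Sdhb had -0.07 (adjusted p = 0.21 by limma), and the membrane anchors Sdhc and Sdhd had 0.03 and 0.07 (limma adjusted p = 0.68 and 0.22). The intervals of all 4 lay between -0.14 and 0.14 on the log2 scale.

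Complex III passes electrons from ubiquinol to cytochrome c, and all 8 of its genes were tested, with 0 called in either direction by limma (unadjusted p under 0.05: 1 higher, 0 lower). For the core proteins Uqcrc1 and Uqcrc2 the log2 fold changes were -0.005 and -0.01, and for the Rieske iron-sulphur protein Uqcrfs1 the value was 0.05 (limma adjusted p = 0.95, 0.84 and 0.56). Uqcrh, the hinge protein, was the highest at 273 ± 23.1 and 262 ± 19.3 FPKM (n = 4, SD; -0.06 in log2 units). The gene with the lowest p was Uqcr10, a small subunit, at 160.9, 171, 183 and 164 FPKM in the controls and 185, 176, 181 and 197 FPKM with Fto siRNA. Control replicate 3 lay among the Fto siRNA libraries and the other 3 controls lay below all of them. The log2 fold change was 0.12 (SE 0.05, limma adjusted p = 0.101).

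Complex IV, cytochrome c oxidase, held the gene with the largest log2 fold change, which reached the tested level only through the Fto siRNA group. Cox6a2 is the muscle and heart form of subunit VIa, and Cox6a1 is the form of most other tissues. Cox6a2 lies at mm9 chromosome 7, 135348949 to 135349880, and held 0.642, 0.461, 0.659 and 0.678 FPKM in the controls and 2.27, 1.81, 1.78 and 2.89 FPKM with Fto siRNA. Every Fto siRNA library was above every control. The means were 0.610 ± 0.101 and 2.19 ± 0.517 FPKM (SD, n = 4), a ratio of 3.58, and the log2 fold change was 1.26 (SE 0.14, 95% interval 0.95 to 1.57, limma adjusted p = 3.3e-04). It remained called when each library in turn was left out, with log2 fold changes of 1.14 to 1.33 and limma adjusted p of 7.7e-04 to 0.0019. The filter on level used all 8 libraries in each of these fits, so Cox6a2 could not drop out through it.

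The counts behind these values were small. Worked back from the width of the deposited intervals, the controls held 6, 5, 6 and 7 fragments of Cox6a2 and the Fto siRNA libraries 22, 17, 15 and 28. The gene reached the tested level of 1 FPKM only through the Fto siRNA group, and with a minimum mean of 5 FPKM it was not tested. Its locus overlaps that of Itgad, which was listed at a mean of 0.026 FPKM in the controls and 0.048 with Fto siRNA. Cox6a1 held 313.5, 333, 389 and 347 FPKM in the controls and 334, 299.5, 314 and 340 FPKM with Fto siRNA, and the groups overlapped. Its means were 346 ± 31.98 and 322 ± 18.6 FPKM (log2 fold change -0.10, limma adjusted p = 0.33). Cox6a2 thus made up 0.177 ± 0.030% of the FPKM of the pair in the controls and 0.670 ± 0.123% with Fto siRNA (SD, n = 4). The muscle markers Ckm and Myh4 were listed at 0 in all 8 libraries, Myog at 0 in 7, and the 5 muscle markers summed to 1.65 to 2.60 FPKM in control libraries and to 1.72 to 2.53 FPKM in the others.

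Whether reads of the abundant Cox6a1 could be counted as Cox6a2 depends on how alike the genes are, so their coding sequences were aligned. In the GENCODE M21 annotation of GRCm38 that of Cox6a2 has 294 bases and that of Cox6a1 339, and the alignment has gaps, all in Cox6a2. The genes are identical at 190 of the 294 aligned positions (64.6%), and the longest run of identical bases within the alignment is 12. Shown 5′ to 3′ is the last stretch, 135 bases aligned without gaps up to the stop codon (bases 160 to 294 of Cox6a2 and 205 to 339 of Cox6a1), of which 97 are identical; capitals mark the bases that differ.
Cox6a2: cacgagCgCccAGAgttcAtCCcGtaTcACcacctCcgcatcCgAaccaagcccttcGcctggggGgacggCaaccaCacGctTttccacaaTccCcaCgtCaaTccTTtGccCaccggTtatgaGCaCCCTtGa
Cox6a1: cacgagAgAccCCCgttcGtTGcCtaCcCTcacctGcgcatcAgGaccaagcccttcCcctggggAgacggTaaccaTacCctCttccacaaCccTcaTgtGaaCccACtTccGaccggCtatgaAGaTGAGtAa

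The other tissue forms of complex IV were at or near 0 and none was tested. Cox7a1, the muscle and heart form of subunit VIIa, held 0.615, 1.32, 0.632 and 0.557 FPKM in the controls and 0.593, 0.919, 0.341 and 1.19 FPKM with Fto siRNA, on 1 to 5 fragments per library, and the groups overlapped. Its common partner Cox7a2 held 98.95 ± 5.34 and 99.6 ± 2.55 FPKM (n = 4, SD; 0.01 in log2 units, limma adjusted p = 0.89). Cox4i2, the lung form of subunit IV, held at most 0.286 FPKM, and Cox4i1 426 ± 26.9 and 414 ± 21.8 FPKM (log2 fold change -0.04, limma adjusted p = 0.64). Cox8b, Cox6b2 and Cox7b2 were listed at 0 in 7, 7 and 6 of the 8 libraries and Cox8c in all 8, beside 416 FPKM of Cox8a, 358 of Cox6b1 and 125 of Cox7b in the controls. Ndufa4l2, the hypoxia-induced relative of Ndufa4, held 0.128, 0, 0.197 and 0.058 FPKM in the controls and 0.370, 0.509, 0.071 and 0.308 FPKM with Fto siRNA. Of these, Fto siRNA replicate 3 lay inside the range of the controls, and the locus of Ndufa4l2 overlaps that of Shmt2.

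Among the common complex IV genes none was called. Cox5a and Cox5b, which sit beside the catalytic core, had log2 fold changes of 0.05 and -0.01 (limma adjusted p = 0.66 and 0.94). Cox7b, a small membrane subunit, held 119, 123, 140.2 and 120.3 FPKM in the controls and 105, 106, 111 and 119.1 FPKM with Fto siRNA. Only Fto siRNA replicate 4 lay inside the range of the controls, just above the lowest. The log2 fold change was -0.18 (SE 0.06) at a limma adjusted p of 0.055, and without Fto siRNA replicate 4 it was called lower at -0.22 (limma adjusted p = 0.038). Cox7a2l, the supercomplex factor, held 209.7, 226, 242 and 222 FPKM in the controls and 235, 249, 243.5 and 254 FPKM with Fto siRNA. Control replicate 3 lay above 1 of the Fto siRNA libraries and the other controls lay below all of them. Its log2 fold change was 0.13 (SE 0.05, limma adjusted p = 0.088). Pseudogenes with at least 95% identity over at least 200 bases exist for both Cox7b and Cox7a2l, and for 19 of the 90 genes in all, with up to 8 for Atp5l, so these levels can include or lose reads of copies.

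**Figure D3:**
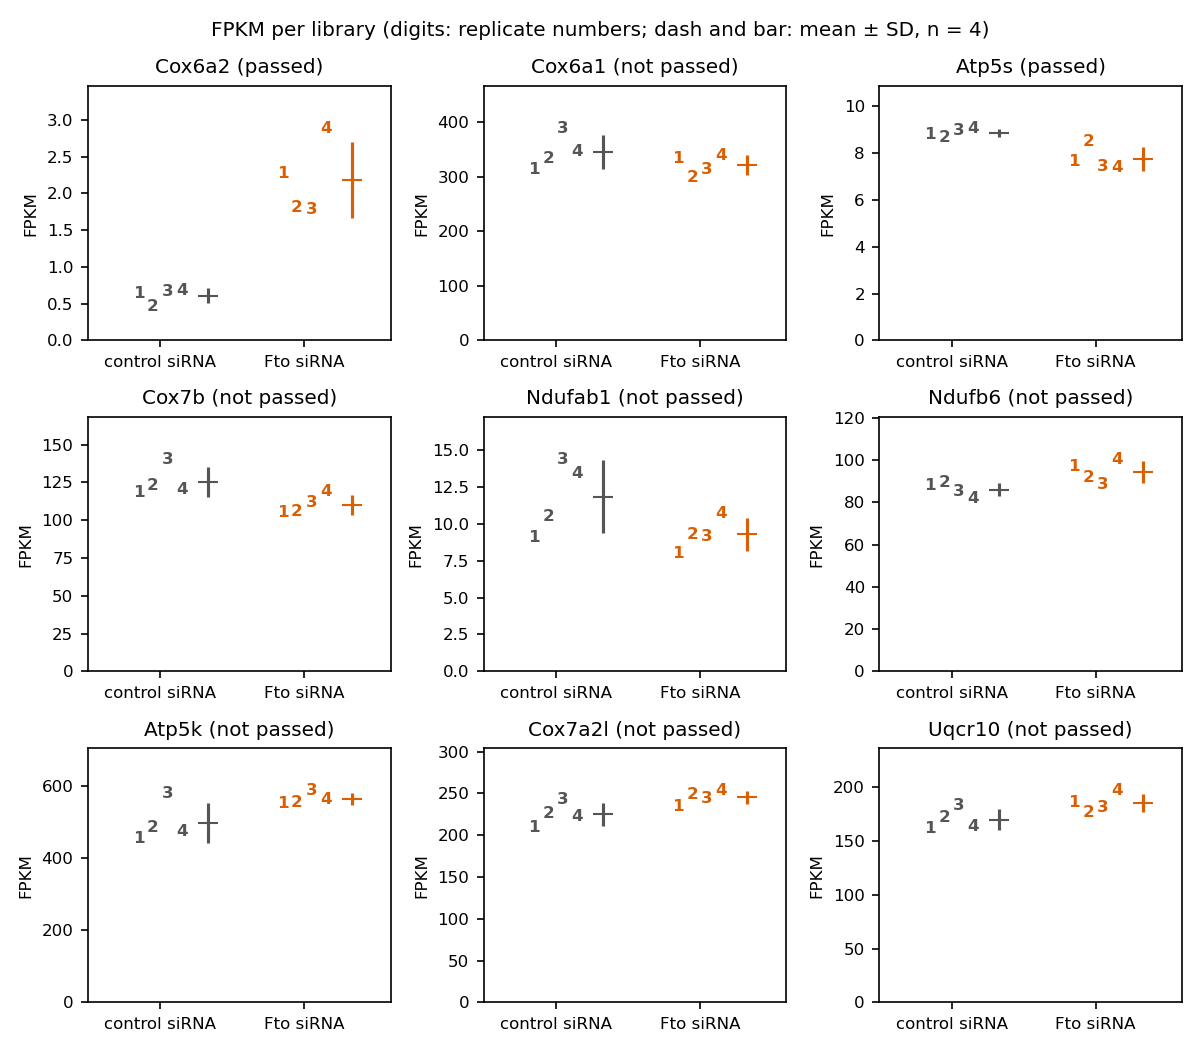
FPKM in each library (digits are replicate numbers) with the mean ± SD (n = 4) beside them, for 9 genes: the 2 that passed the test, Cox6a1, and the 6 with the lowest p or the largest difference among the rest. Axes start at 0; Cox6a2 and Atp5s show no overlap between groups, and in Atp5k, Cox7a2l and Uqcr10 control replicate 3 lies among the Fto siRNA libraries.

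Complex V, the ATP synthase, had all of its 15 genes tested and 0 called in either direction by limma (unadjusted p under 0.05: 1 higher, 0 lower). The catalytic head is built mainly from the products of Atp5a1 and Atp5b. Atp5a1 held 251 ± 9.31 and 249 ± 4.88 FPKM (n = 4, SD; -0.01 in log2 units, limma adjusted p = 0.86). Atp5b held 416, 428.5, 439.6 and 446.17 FPKM in the controls and 462, 446.18, 448 and 481 FPKM with Fto siRNA. Control replicate 4 and Fto siRNA replicate 2 were nearly level, so the groups were just apart. Its log2 fold change was 0.09, with a 95% interval of -0.001 to 0.17 (limma adjusted p = 0.16). Atp5c1, the central stalk, had -0.02 (limma adjusted p = 0.77). Atp5k held 453, 484, 578 and 473 FPKM in the controls and 549, 554, 587 and 561 FPKM with Fto siRNA. Control replicate 3 was the only control at the level of the Fto siRNA libraries. The log2 fold change was 0.19 (SE 0.07, limma adjusted p = 0.086), and without control replicate 3 it was 0.26 and Atp5k was called higher.

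Subunit c, the proton-carrying ring, is made from 3 genes that encode the same mature protein. Of their summed FPKM in the controls, Atp5g3 made up 66.2 ± 0.867%, Atp5g2 27.9 ± 0.966% and Atp5g1 5.96 ± 0.1003% (SD, n = 4). With Fto siRNA the shares were 68.3 ± 1.08%, 26.01 ± 0.993% and 5.66 ± 0.148%. The ranges of the Atp5g1 share did not overlap, at 5.85 to 6.07% and 5.45 to 5.80%, and those of the other two did; the shares were not tested. None of the 3 genes was called, with log2 fold changes of 0.07 for Atp5g3, -0.07 for Atp5g2 and -0.05 for Atp5g1 (limma adjusted p = 0.33, 0.44 and 0.58). A copy of Atp5g1, Gm10039, is identical at 99.8% of 411 aligned bases.

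Of the 7 other proteins Atp5s was called lower. It lies at mm9 chromosome 12, 70825949 to 70845645, and held 8.78, 8.66, 8.94 and 9.04 FPKM in the controls and 7.63, 8.48, 7.43 and 7.36 FPKM with Fto siRNA. All Fto siRNA libraries lay below all controls, with replicate 2 close to them. The means were 8.85 ± 0.169 and 7.72 ± 0.514 FPKM (SD, n = 4), and the log2 fold change was -0.19 (SE 0.05, limma adjusted p = 0.027). The call was lost without control replicate 1, 2 or 4 or without Fto siRNA replicate 1, 3 or 4 (limma adjusted p 0.054 to 0.074). Its relative Atp5sl held 6.33 ± 0.609 and 6.54 ± 0.160 FPKM (log2 fold change 0.05, limma adjusted p = 0.66). The assembly factors Ndufaf1 to Ndufaf4 had log2 fold changes of -0.01, 0.00, -0.01 and 0.11 and none was called. Ndufaf4, the lowest of the 7 in level, held 4.81, 4.64, 4.44 and 4.66 FPKM in the controls and 4.92, 5.38, 4.88 and 4.999 FPKM with Fto siRNA. Its groups did not overlap, but the limma adjusted p was 0.18.

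The small differences on the higher side moved most with 1 library. Control replicate 3 was the highest of the controls for 68 of the 82 genes (82.9%) and for 40.4% of all tested genes. Against the mean of the other controls it lay higher in 77 of the 82, by a median of 0.17 on the log2 scale, while the median over all tested genes was 0.03. Fto siRNA replicate 4 stood out the same way within its group, by a median of 0.09 in these genes and 0.02 over all. Control replicate 1 lay the other way, by a median of -0.10 in these genes and -0.02 over all. It was above the mean of the other controls in 7 of the 82. Without control replicate 1 the median log2 fold change of the 82 genes was -0.01, with 38 above 0. In that fit 1 was called higher (1.22%, beside 5.11% of all tested genes). Transcripts of these genes are short, with a median of 963 bases against 3078 over all tested genes (longest annotated per gene, coding where available). Other tested genes also deviated in control replicate 3 by length: the median was 0.17 for those under 1000 bases, 0.11 for 1000 to under 2000, 0.04 for 2000 to under 4000 and -0.06 for 4000 or more. The oxidative phosphorylation genes under 1000 bases had a median of 0.19 and the longer ones 0.12. What made this library differ was not tested.

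**Figure D4:**
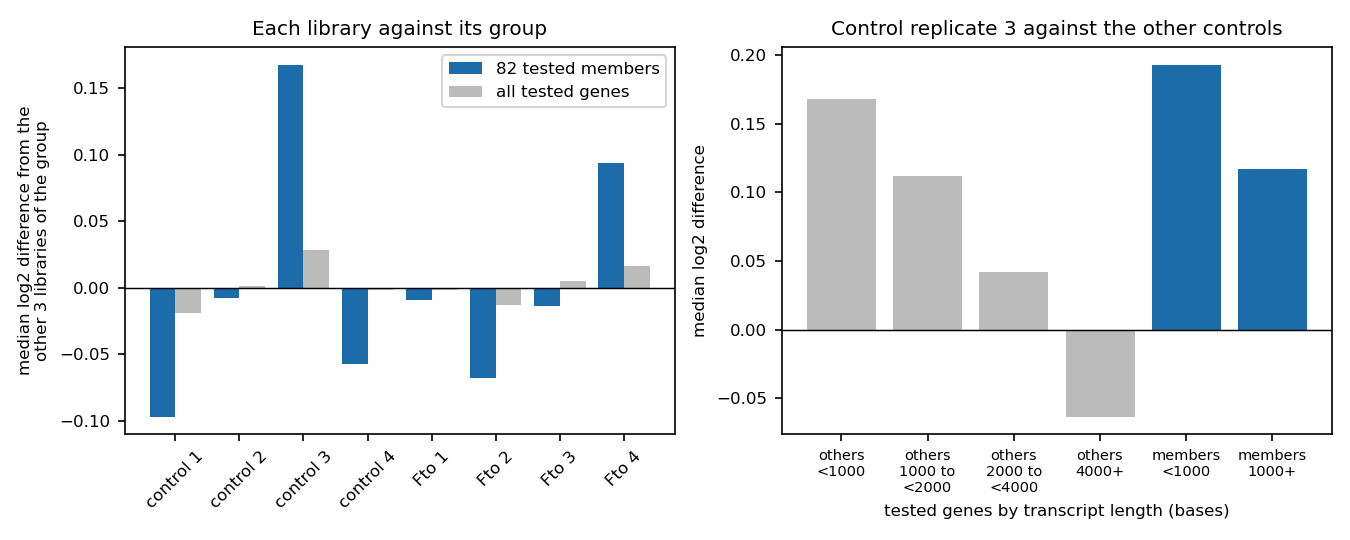
Left, median log2 difference of each library from the mean of the other 3 of its group, for the 82 tested oxidative phosphorylation genes (blue) and all tested genes (grey). Right, the same difference for control replicate 3 by transcript length in bases, for other tested genes (grey) and the oxidative phosphorylation genes (blue): shorter classes lie higher, at 0.17 and 0.19, and transcripts of 4000 bases or more lie at -0.06.

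Without control replicate 3, limma called 7 of the 82 genes higher and 1 lower, which is 8.54% higher beside 8.26% of all tested genes in the same fit. The 7 were Cox6a2, Atp5h, Atp5k, Cox7a2l, Ndufa5, Ndufb9 and Uqcr10, and the lower gene was Atp5s. The median log2 fold change of the 82 genes was then 0.06, and that of other genes under 1000 bases moved from -0.01 to 0.03. Scaling mattered as well: with median-ratio scaling 5 of the 82 were called higher (Atp5k, Cox6a2, Cox7a2l, Ndufb6 and Uqcr10) and 1 lower. Over all tested genes that scaling raised the share of higher among the calls from 36.2% to 47.6%, with 9.57% of genes called higher. With median-ratio scaling and no control replicate 3, a setting added after the data were seen, 14 were called higher (17.1%, beside 10.4% of all tested genes) and 0 lower. Atp5k, Cox7a2l, Uqcr10 and Cox6a2 were called higher in all of these fits. Of them only Cox6a2 was also called with all libraries and no such scaling. It had the largest log2 fold change in each, at 1.26 to 1.29. Leaving out control replicate 3, the highest control for 68 of the 82 genes, by itself raises their differences, so these fits are no independent support for one another. Without Fto siRNA replicate 4, the high library of its group, limma called 1 of the 82 higher (1.22%, beside 4.82% of all tested genes). It called 1 lower (Cox7b, beside 9.91%), and the median log2 fold change was 0.0001.

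Genes that work with the complexes were read from 9 further lists with 111 tested genes in all. Of these 7 were called higher (6.31%) and 8 lower (7.21%), beside 6.97% and 12.3% of all tested genes, so calls in the lists were no more frequent than over all genes. Among 8 further proteins of complexes III to V and cytochrome c, Higd1a, a small membrane protein associated with complexes III and IV, rose from 10.6 ± 0.783 to 13.6 ± 1.66 FPKM (n = 4, SD; 0.34 in log2 units, limma adjusted p = 0.021) and 7 were not called, among them the cytochrome c gene Cycs at 0.10 and the complex III subunit Cyc1 at -0.02 (limma adjusted p = 0.23 and 0.82). Of 10 complex I assembly factors Nubpl, which delivers iron-sulphur clusters to complex I, fell from 2.77 ± 0.504 to 1.65 ± 0.351 FPKM (-0.61, limma adjusted p = 0.015) and 9 were not called; 4 of the 10 are the Ndufaf genes above. None of 6 tested factors of complexes II and III was called by limma, with 1 at an unadjusted p under 0.05. Of 15 complex IV factors the copper chaperone gene Sco1 rose by 0.17 and Ccdc56 fell by 0.21 on the log2 scale (limma adjusted p = 0.032 and 0.027). Of 3 complex V factors Atpaf2, which assembles the catalytic head, fell from 9.69 ± 0.345 to 8.01 ± 0.203 FPKM (-0.26, limma adjusted p = 0.0026). The subunits coded in mitochondrial DNA are not analysed here.

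In the lists of regulators and neighbouring pathways single genes were called. Among 12 tested regulators of mitochondrial biogenesis Esrra, the orphan receptor that drives many oxidative phosphorylation genes, rose from 12.3 ± 0.874 to 14.2 ± 0.839 FPKM (n = 4, SD; 0.20 in log2 units, limma adjusted p = 0.034) and Myc rose by 0.18 (limma adjusted p = 0.015). The other 10 were not called: the activators Nrf1, Gabpa and Yy1 had -0.07, -0.07 and 0.03 and the coactivator Ppargc1a -0.06 (limma adjusted p = 0.56, 0.18, 0.62 and 0.68). Of 13 genes of mitochondrial DNA transcription and replication the topoisomerase Top1mt and the terminator Mterf fell by 0.39 and 0.19 on the log2 scale (limma adjusted p = 0.0054 and 0.037), and Tfam, which packs mitochondrial DNA, had -0.01. In the citric acid cycle Idh2, the mitochondrial NADP-dependent isocitrate dehydrogenase, fell from 212 ± 9.15 to 166.8 ± 7.16 FPKM (-0.34, limma adjusted p = 5.8e-04) and Suclg2 fell by 0.21, while Dlst and Ogdh, subunits of 1 enzyme complex, rose by 0.19 and 0.17; 14 of the 18 were not called. Of 26 import and outer membrane genes the channel genes Vdac1 and Vdac2 went opposite ways, at 0.21 and -0.20 (limma adjusted p = 0.0028 and 0.0068), and 24 were not called. The list medians lay between -0.06 and 0.04, beside -0.02 over all tested genes.

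The promoters of these genes were read for letters known from this gene class. RefSeq promoter windows of GRCm38.p6, from 250 bases before to 50 after the start, matched 74 of the 90 genes, some of them with more than 1 window. Both strands were searched for 7 words; the NRF1 word can overlap its own reverse strand, and the ETS and YY1 words can share the letters AAG. GCGCATGC, of the activator NRF1, was in 14.9% of the 74 and in 6.38% of 8952 other tested genes. AAGATGGC, of YY1, was in 14.9% and 5.59%, and CCGGAAG, of ETS factors such as Gabpa, in 23.0% and 21.5%. TCAAGGTCA, of Esrra, was in only 2 of the 74 (2.70%) and in 0.302% of the other tested genes. CCAAT was in 45.9% and 44.0%, TATAAA in 9.46% and 8.46% and CAGCTG in 8.11% and 17.1%. On the transcribed strand 9 of the 74 (12.2%) held AAGATGGC within their first 50 transcribed bases, against 2.61% of other tested genes. A match of letters is a description of the window and no measure of binding. Short stretches around that word (capitals) in 4 of the 9 show where it sits, on GRCm38.p6: Ndufa3 at chr7:3617385-3617412 (plus strand), Ndufs7 at chr10:80249463-80249490 (plus), Ndufb8 at chr19:44555393-44555414 (minus) and Atp5j2 at chr5:145191501-145191528 (minus). The word itself always contains the letters ATG.
Ndufa3: cgccaagaacAAGATGGCcgggagtaag
Ndufs7: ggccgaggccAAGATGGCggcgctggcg
Ndufb8: ggagaaggtgAAGATGGCtgcc
Atp5j2: ccaggacttcAAGATGGCgtcactcggt
The log2 fold changes of these 4 genes were 0.06, -0.10, 0.10 and -0.01, and none was called.

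The genes also differed from others in their 3′ ends. The words GACCTTA and ACCTTAA had been picked earlier on these data as those whose carriers had the lowest values with Fto siRNA, so their share there is no independent evidence. They were in the longest annotated 3′ UTR of 4 of 81 searched genes (4.94%), against 13.2% of all tested genes and 26.04% of the genes called lower. The 4 were Ndufab1, Cox7b, Ndufb2 and Cox4nb, with log2 fold changes of -0.32, -0.18, 0.04 and 0.04. Their longest annotated 3′ UTRs were 2944, 627, 4012 and 4175 bases long. Whether the transcripts of these cells reach those ends, and so hold the words, was not tested. Atp5s, which was called lower, held neither word. Taken the same way, the median 3′ UTR of the 81 was 236 bases long and that of all tested genes 1193 bases. The shares above make no allowance for length.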

How the data were processed

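The submitters' processing notes name TopHat2 2.0.11, Cufflinks 2.2.1 and the mm9 build. The authors deposited 1 table of FPKM with intervals per library, per the file headers; FPKM are not counts, and no source used here says whether strand was kept. Their compiled tables, which hold the same FPKM, were not used. Genes with a mean of at least 1 FPKM over 8 libraries were compared on log2(FPKM + 0.5) with limma 3.58.1 (R 4.3.3, trend in the prior variance, no covariate, Benjamini-Hochberg over 11398 genes, threshold 0.05), which was tested on simulated data. Fragments were worked back from the width of the deposited intervals; over the 90 genes their median was 1005 to 1247 per library, and such depths cover counting error only. In all, 17 alternatives were listed beforehand and 2 were added after the data were seen. Named genes were all called members, core and catalytic subunits, tissue forms and their common partners, the highest and lowest of each complex, and up to 3 genes with the lowest p per other list; uncalled genes near the threshold, Suclg2 and the uncalled Nrf1, Yy1, Ppargc1a, Tfam and Cyc1 were chosen after their values were seen. A gene covered by this rule for naming is not reported here. Members, lists and rules were chosen with earlier results of these data known. Deposited loci start at 0 and are given from 1; sequences came from GENCODE M21, RefSeq and blastn 2.17.0. Python 3.11.15 with pandas 2.3.3 and matplotlib 3.10.9 did the rest.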

Additional observations from a re-analysis of the deposited data

Results flagged for a closer look

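In each group of 4 libraries, a library was marked where its gap to the nearest other exceeded Dixon's 95% critical value, as a share of the group's range. Chance marks about 1 in 20 groups, and 8 marks arose in 110 groups. Control replicate 3 was marked as high for Cox6b1 (390.2 FPKM, next 349 FPKM) and for Ndufs3 (60.8 FPKM, next 55.0 FPKM), and control replicate 1 as low for Sdha (83.4 FPKM, next 86.6 FPKM). Control replicate 2 was marked as low for Cox6a2 (0.461 FPKM, next 0.642 FPKM) and as high for Cox7a1 (1.32 FPKM, next 0.632 FPKM), which rest on 5 fragments each. Cox6b2 in Fto siRNA replicate 3 (0.212 FPKM) and Cox8b in Fto siRNA replicate 1 (0.604 FPKM) were listed above 0 in 1 library of 4. Ndufs5 in Fto siRNA replicate 4 (3.15 FPKM) was marked beside values of at most 6.2e-05 FPKM.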

How the results depend on the processing

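Over the 17 listed and 2 added settings no log2 fold change of a named gene reversed among those that were called. The number of oxidative phosphorylation genes called higher was 1 as reported, 0 with a minimum mean of 5 FPKM, 5 with median-ratio scaling, 6 with quantile normalization, and 1 to 7 when 1 library was left out (7 without control replicate 3, 2 without Fto siRNA replicate 3). The shares of all tested genes called higher in these fits were, in the same order, 6.97%, 7.67%, 9.57%, 9.53% and 4.82 to 8.26%. The number of oxidative phosphorylation genes called lower was 1 as reported, 2 with robust empirical Bayes and 0 to 1 when 1 library was left out, 0 on leaving out control replicate 2 or 4, or else replicate 1 or 3 of Fto siRNA. Of all tested genes 12.3%, 12.5% and 8.70 to 12.6% were called lower in these fits. In the added settings, median-ratio scaling without control replicate 3 gave 14 higher and 0 lower and quantile normalization without it gave 12 and 1. Of 111 genes of the other lists 7 were called higher and 8 lower as reported, and 4 to 9 and 6 to 8 when 1 library was left out (all tested genes in those fits: 4.82 to 8.26% higher and 8.70 to 12.6% lower). In the added settings 12 and 11 of the 111 were called higher, beside 10.4% and 9.98% of all tested genes. The causes were not tested. The median of the 82 genes lay between -0.01 and 0.06 when 1 library was left out. Atp5s was not called with quantile normalization (limma adjusted p = 0.061) and in neither added setting (0.065 and 0.090). Deviations from the group means correlated between same-numbered libraries at 0.07, -0.04, -0.19 and -0.09. These values show no pairing by number but cannot tell whether such samples were handled together. With the number as a replicate block, 1 gene was called higher (Cox6a2) and 1 lower (Ndufab1, limma adjusted p = 0.034), and Atp5s was not called (0.063). No library correlated best with its own number. Cox7b was called lower with quantile normalization (limma adjusted p = 0.013) and robust empirical Bayes (0.048). Over all single-gene values under the alternatives, 1179 kept their side of the threshold, 53 lost a call and 56 gained one. Low fragment numbers limit what can be said of the tissue forms.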
